A study of Mus musculus with 9 samples.

Results

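Aminoacyl-tRNA synthetases were examined in macrophages grown from mouse bone marrow and given homogenised spinal cord. Members were taken by gene name from the deposited count table: names of a single letter followed by ars, with or without a closing 1 or 2, together with Eprs, Farsa, Farsb, Tarsl2 and the scaffold proteins Aimp1 and Aimp2. The rule found 40 of 53342 genes, of which 21 encode cytosolic enzymes, 17 encode mitochondrial enzymes, whose names end in 2, and 2 encode scaffold proteins. All 40 had enough counts to be tested, as did 12511 genes of the table. The cells came from wild-type C57BL/6J mice of both sexes aged 8 to 12 weeks, and bones of different animals were kept apart. They were pretreated for 2 h with Torin-2, which blocks the ATP site of the mTOR kinase, with rapamycin, which acts on the mTORC1 complex, or with vehicle. Homogenate was then present for 24 h at 1% weight per volume (10 mg per mL) in all 3 groups, vehicle included, so no group without homogenate enters these comparisons. The homogenate was made from pooled cords of mice of both sexes aged 8 to 20 weeks, and no source used here gives the doses of Torin-2 and rapamycin. Each group held 3 libraries.

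Each synthetase joins an amino acid to its matching transfer RNA, and the charged tRNA is what the ribosome reads. Most animal cells carry separate nuclear genes for the cytosolic and the mitochondrial enzyme, while glycyl- and lysyl-tRNA synthetase (Gars and Kars) serve both compartments from 1 gene. Several cytosolic enzymes are held in the multisynthetase complex, which is built on the scaffolds Aimp1, Aimp2 and Eef1e1. Many cytosolic synthetase genes are known targets of ATF4, a transcription factor of the amino acid response whose synthesis mTORC1 is known to promote.

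Total counts per library ran from 16116666 to 24044329, and the first principal component held 58.2% of the variance and kept the 3 groups apart. Replicate 3 of each group stood apart from replicates 1 and 2 on the third component, which held 9.69%. Of the macrophage markers, Lyz2 and Cd68 were high in all groups, in keeping with the label. Lyz2 averaged 11711, 14931 and 9752 CPM (counts after scaling each library by its total and TMM factor) with Torin-2, rapamycin and vehicle. Cd68 averaged 2263, 2856 and 2371 CPM in the same order. Other listed macrophage markers lay lower, down to Aif1 at 2.84, 7.35 and 12.2 CPM and Cx3cr1 at 0.26, 4.36 and 4.39 CPM. Markers of oligodendrocytes, astrocytes, neurons and fibroblasts were also present, and the source of their RNA was not tested. Summed oligodendrocyte and myelin markers stood at 368.2 to 425.3 CPM in Torin-2, 695.8 to 852.2 CPM in rapamycin and 483.2 to 618.0 CPM in vehicle libraries, and the astrocyte, neuron and fibroblast sums also had their lowest means with Torin-2. In Torin-2 against vehicle, 5 of 8 tested oligodendrocyte, 3 of 8 astrocyte, 2 of 7 neuron and 3 of 6 fibroblast markers were lower. Of these lists 0 markers were higher by edgeR, by DESeq2 or at an unadjusted p under 0.05. Of 12 macrophage markers, 4 were higher and 5 lower. Among all genes 32.9% were lower and 32.5% higher. The astrocyte and neuron shares lower and both macrophage shares were thus near those of all genes. Of the neutrophil and lymphocyte markers, S100a9, Ly6g, Mpo, Cd3d, Cd3e and Nkg7 had 0 counts in all 9 libraries, and Elane, Cd79a and Ms4a1 had 1, 1 and 6 counts over all of them. S100a8, a neutrophil gene, had counts in every library, averaged 1.80, 4.16 and 3.25 CPM with Torin-2, rapamycin and vehicle, and was lower with Torin-2 than with vehicle (log2 fold change -0.86, adjusted p = 0.0106). Fewer cells of a type and less RNA per cell cannot be told apart in bulk RNA, and the part of homogenate RNA in the synthetase values was not tested.

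Per kilobase of their principal transcript, most cytosolic enzymes were expressed above most mitochondrial ones, Tarsl2 and Lars2 being exceptions. In vehicle libraries Nars, which charges asparagine, was the most abundant cytosolic member at 77.3 ± 4.38 CPM per kb (SD, n = 3), followed by Sars (serine) at 64.0 ± 3.04 CPM per kb. The next 5, from Rars at 59.7 ± 2.34 to Wars at 57.0 ± 2.24 CPM per kb, differed from their neighbours in this order by less than their SD. The lowest was Tarsl2, a second cytosolic threonyl-tRNA synthetase, at 3.14 ± 0.245 CPM per kb, against 15.8 ± 0.640 CPM per kb for Tars. Leaving Lars2 aside, mitochondrial members ranged in vehicle libraries from 17.9 ± 0.126 CPM per kb for Tars2 to 0.822 ± 0.119 CPM per kb for Mars2. In Torin-2 libraries the order of levels differed: Qars, the glutaminyl enzyme, had the highest cytosolic mean at 69.5 ± 0.279 CPM per kb and Kars the next at 65.5 ± 3.83 CPM per kb, with Nars at 60.8 ± 1.99 CPM per kb.

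ATF4 binds the C/EBP-ATF response element, searched here as TGATGNAA on both strands in RefSeq windows from 250 bases before to 50 after each start (GRCm38.p6). A window was at hand for 30 of the 40 members. Those without included Cars, Hars, Lars, Nars, Rars, Vars, Wars, Hars2 and Pars2. A match was found in 5 of 14 cytosolic members with a window (35.7%), 0 of 14 mitochondrial members and 0 of 2 scaffolds, against 4.51% of 27025 genes. The 5 cytosolic stretches are shown on the strand of the gene because they are the members that share these letters, with the match in capitals. Only the Yars match reads TGATGNAA on the gene's own strand. The Aars match lies 112 to 105 bases before the RefSeq start, that of Gars 30 to 23 and that of Tars 15 to 8 bases before it, while that of Iars lies 7 to 14 and that of Yars 3 to 10 bases after it. Aars holds another match, 9 to 16 bases after its start.
Aars, chr8:111033706-111033761, plus strand: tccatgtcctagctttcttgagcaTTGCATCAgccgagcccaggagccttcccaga
Gars, chr6:55037947-55038000, plus strand: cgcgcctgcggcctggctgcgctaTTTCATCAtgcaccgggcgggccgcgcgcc
Iars, chr13:49682127-49682154, plus strand: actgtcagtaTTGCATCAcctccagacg
Tars, chr15:11399659-11399697, minus strand: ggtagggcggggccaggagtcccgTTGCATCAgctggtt
Yars, chr4:129189896-129189923, plus strand: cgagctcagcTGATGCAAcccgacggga
The motif of NRF1, a regulator of nuclear genes for mitochondria, searched on both strands with 1 free base at its centre, was found in 3 of 14 cytosolic members (Farsb, Kars and Tars), 2 of 14 mitochondrial members (Iars2 and Mars2) and 5.19% of all genes. The matches of the 2 motifs did not overlap. A match is a description of the sequence and not a measured binding site.

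With Torin-2, most cytosolic synthetase transcripts were lower than with vehicle. Of 21 members, 18 fell, 2 rose and 1 did not pass the threshold of an adjusted p of 0.05, with a median log2 fold change of -0.77. Among all 12511 genes 65.4% passed, 32.9% lower and 32.5% higher, with a median of -0.008. Over all 40 members, 30 had every Torin-2 library below every vehicle library and 8 had every one above, against 35.1% of all genes below, 35.1% above and 70.2% apart in either direction. The summed level of the 21 cytosolic members was 1508 to 1534 CPM in Torin-2 libraries, against 2143 to 2314 CPM in vehicle libraries, without overlap. The fold changes with rapamycin and those between both inhibitors come from the same libraries, so they are given side by side below and are not independent.

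**Figure D1:**
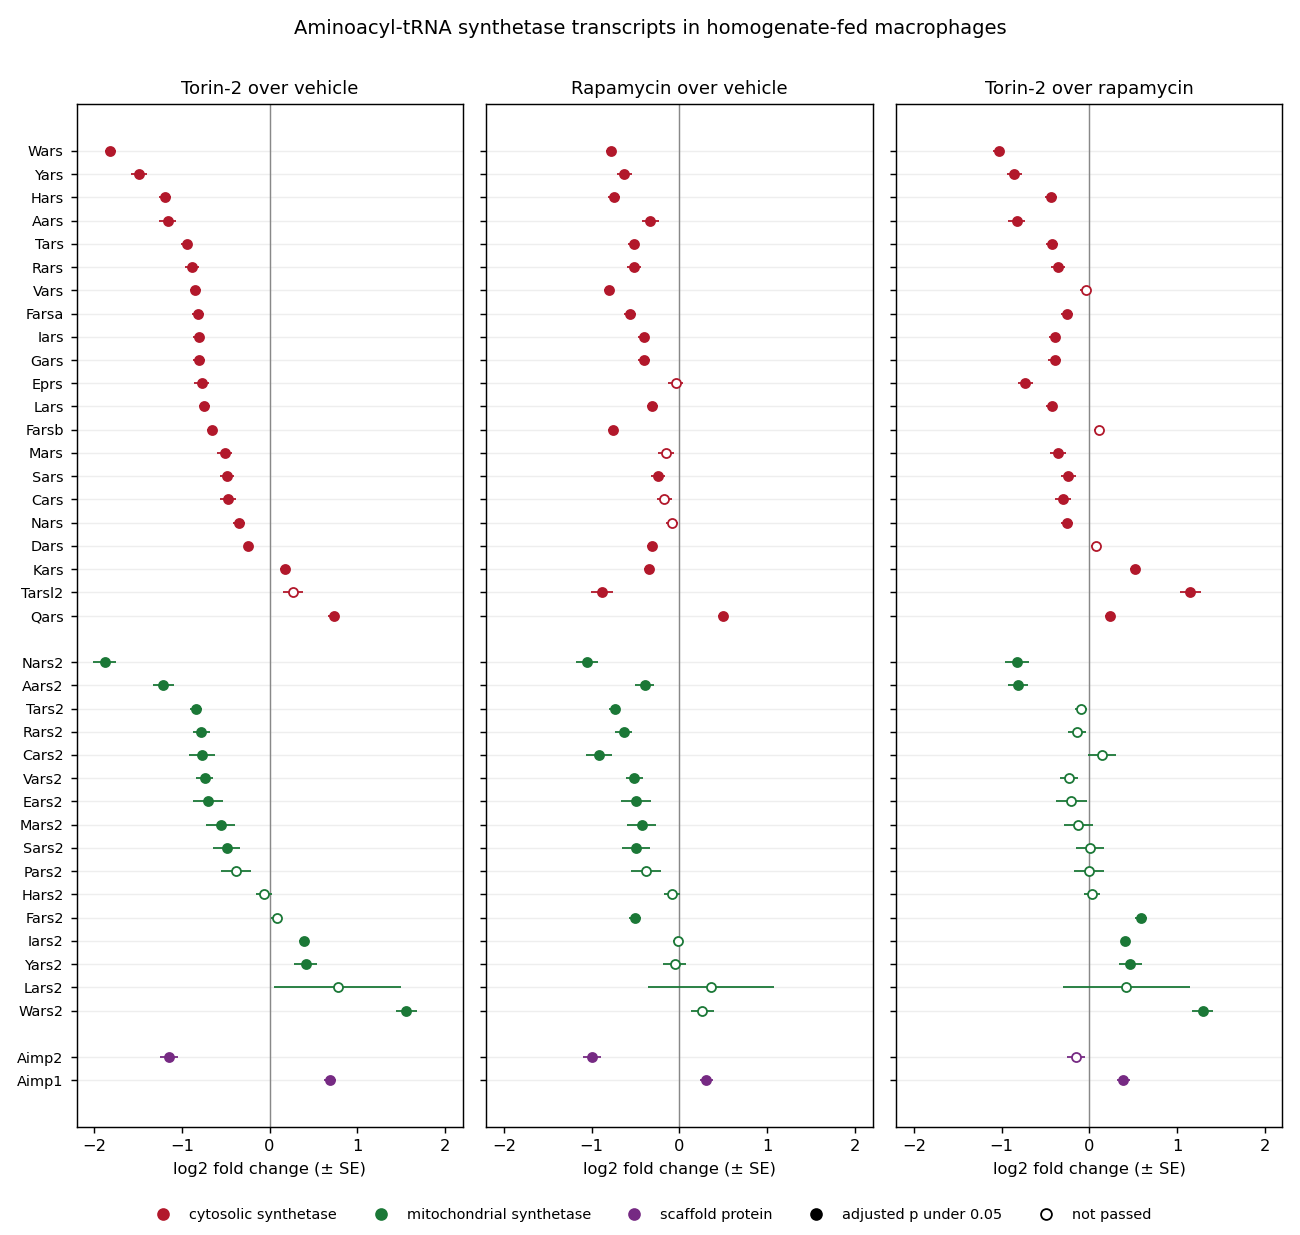
Log2 fold change with SE (horizontal axes) of 39 members (rows) in the 3 comparisons, cytosolic enzymes at the top, mitochondrial enzymes in the middle and scaffold proteins at the bottom. Filled points passed an adjusted p of 0.05: 18 cytosolic members lie left of 0 with Torin-2 over vehicle and 16 with rapamycin over vehicle, and Lars2 carries by far the longest error bars.

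The largest cytosolic fall was that of Wars, the tryptophanyl enzyme (chr12:108860030-108894174, minus strand, GRCm38). It stood at 28.9, 28.5 and 30.9 CPM in Torin-2 libraries, 57.1, 61.5 and 62.2 CPM in rapamycin libraries and 101, 103 and 108 CPM in vehicle libraries. The 3 groups did not overlap, with Torin-2 lowest and vehicle highest (log2 fold change -1.82, SE 0.062, adjusted p = 6.01e-10 for Torin-2 against vehicle). Yars charges tyrosine, and its window holds a match to the letters of the response element. It had 15.99, 16.2 and 18.7 CPM in Torin-2 libraries and 29.99, 28.6 and 33.6 CPM in rapamycin libraries. In vehicle libraries it had 44.7, 49.02 and 49.3 CPM. The groups were again apart and in that order (log2 fold change -1.49, SE 0.088, adjusted p = 4.04e-08). Hars, the histidyl enzyme, was at 32.8, 34.8 and 33.2 CPM in Torin-2 libraries, 48.8, 45.6 and 42.4 CPM in rapamycin libraries and 72.3, 81.8 and 75.5 CPM in vehicle libraries. All Torin-2 values were below all rapamycin values, and these below all vehicle values (log2 fold change -1.19, SE 0.07, adjusted p = 3.84e-08). Aars, the alanyl enzyme, had 102, 93.2 and 108 CPM in Torin-2 libraries, 165, 168 and 208 CPM in rapamycin libraries and 211, 218 and 251 CPM in vehicle libraries. Torin-2 values lay below the others, while the highest rapamycin library, replicate 3, came close to the lowest vehicle library (log2 fold change -1.16, SE 0.098, adjusted p = 7.36e-07).

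The other 14 cytosolic members that fell with Torin-2 had log2 fold changes from -0.95 for Tars to -0.24 for Dars, which charges aspartate. Between them lay Rars at -0.88, Vars at -0.85, Farsa at -0.82, Iars at -0.81, Gars at -0.80, Eprs at -0.77, Lars at -0.74 and Farsb at -0.65. Mars, Sars, Cars and Nars fell by 0.51, 0.49, 0.47 and 0.35 on the log2 scale. The 5 members with a match to the response element (Yars, Aars, Tars, Iars and Gars) ranged from -1.49 to -0.80. The other 9 cytosolic members with a window ranged from -0.82 for Farsa to 0.73 for Qars. With rapamycin against vehicle the same 5 ranged from -0.63 to -0.33, and the other 9 from -0.88 for Tarsl2 to 0.50 for Qars. Wars and Hars, among the largest falls with Torin-2, had no window and enter neither range. No test was made of these differences. Mars shares 68 exon bases with Ddit3 on the opposite strand, Hars shares 195 with Hars2 and Yars shares 30 with C77080, and because strand is not stated in the sources used here such reads cannot be told apart.

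Qars and Kars went against the rest. Qars, a member of the multisynthetase complex (chr9:108507706-108515941, plus strand), had 195, 194 and 195 CPM in Torin-2 libraries, 162, 155 and 179.6 CPM in rapamycin libraries and 113, 120.4 and 118 CPM in vehicle libraries. Torin-2 values were highest and vehicle values lowest, with no overlap (log2 fold change 0.73, SE 0.06, adjusted p = 5.78e-07 for Torin-2 against vehicle). Kars, the lysyl enzyme of both compartments, had 130.3, 139.7 and 124 CPM in Torin-2 libraries, 90.7, 87.98 and 95.99 CPM in rapamycin libraries and 113, 119.5 and 116 CPM in vehicle libraries. Here rapamycin was lowest, below vehicle, and Torin-2 was highest (log2 fold change 0.18, SE 0.058, adjusted p = 0.0185). The rise of Kars with Torin-2 was lost without Torin-2 replicate 2 (adjusted p = 0.0878) or without vehicle replicate 1 (adjusted p = 0.0718).

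Both cytosolic threonyl enzymes differed in pattern. Tars stood at 32.2, 32.5 and 33.8 CPM in Torin-2 libraries, 40.5, 45.6 and 45.97 CPM in rapamycin libraries and 60.5, 63.8 and 65.5 CPM in vehicle libraries, in 3 separate groups (log2 fold change -0.95, SE 0.066, adjusted p = 1.54e-07 for Torin-2 against vehicle). Its paralogue Tarsl2 had 11.6, 11.00 and 13.5 CPM in Torin-2 libraries, 5.60, 5.11 and 5.61 CPM in rapamycin libraries and 9.55, 9.61 and 10.9 CPM in vehicle libraries. Torin-2 values lay just above vehicle values and did not pass (log2 fold change 0.27, SE 0.113, adjusted p = 0.0544), although they did with the replicate number as a block (adjusted p = 0.036), without Torin-2 replicate 2 (adjusted p = 0.0425) and without vehicle replicate 3 (adjusted p = 0.0348). With rapamycin Tarsl2 fell below vehicle (log2 fold change -0.88, SE 0.121, adjusted p = 9.56e-05). It shares 120 exon bases with Tm2d3 on the same strand, and Tm2d3 fell with Torin-2 by 0.57 on the log2 scale.

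**Figure D2:**
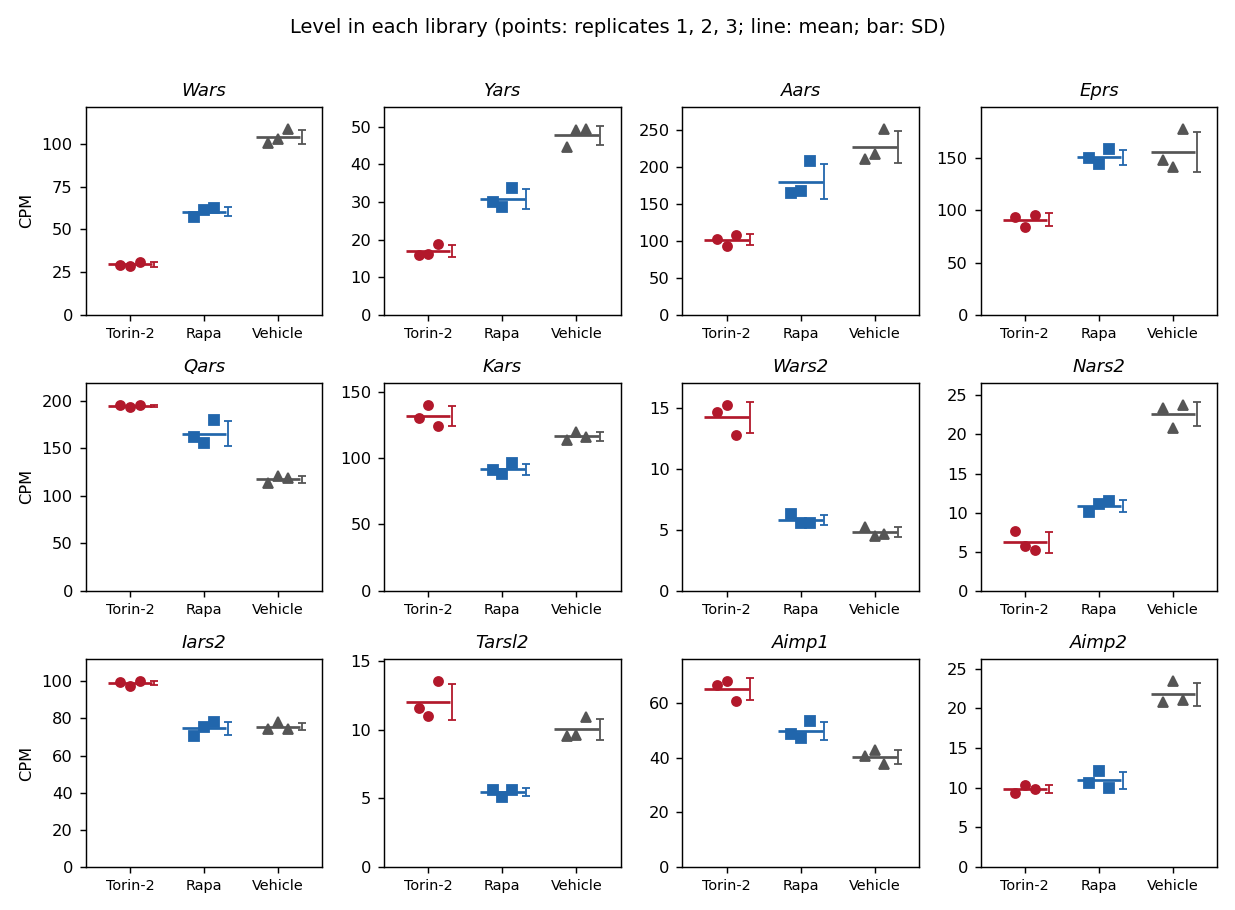
CPM of 12 members in each library (vertical axes start at 0), by group from Torin-2 through rapamycin to vehicle, with the mean as a line and the SD as a bar (n = 3). Wars and Yars are lowest with Torin-2 and highest with vehicle, Qars and Aimp1 are highest with Torin-2 and lowest with vehicle, Kars and Tarsl2 are lowest with rapamycin, and Wars2 is high with Torin-2 alone.

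Rapamycin also lowered most cytosolic members relative to vehicle. Of the 21, 16 fell, 1 rose and 4 did not pass, with a median log2 fold change of -0.41, against 50.8% of all genes called, 26.2% lower and 24.6% higher, and a median of 0.001. All rapamycin libraries lay below all vehicle libraries for 28 of the 40 members and above them for 3, against 29.7% and 27.8% of all genes, or 57.5% in either direction. Summed cytosolic levels were 1703 to 1949 CPM in rapamycin libraries, against 2143 to 2314 CPM in vehicle libraries. After Tarsl2, the largest falls were those of Vars, Wars and Farsb. Vars, the valyl enzyme, had 46.4, 40.8 and 43.03 CPM in Torin-2 libraries, 45.3, 45.6 and 43.01 CPM in rapamycin libraries and 79.9, 76.97 and 77.03 CPM in vehicle libraries. Torin-2 and rapamycin values overlapped and both lay below vehicle (log2 fold change -0.80, SE 0.061, adjusted p = 1.34e-06 for rapamycin against vehicle, and -0.85 for Torin-2 against vehicle). Farsb, the beta subunit of the phenylalanyl enzyme, had 56.7, 57.8 and 54.99 CPM in Torin-2 libraries, 49.4, 53.2 and 54.8 CPM in rapamycin libraries and 85.2, 90.7 and 90.2 CPM in vehicle libraries. Both inhibitors were below vehicle (log2 fold change -0.76, SE 0.058, adjusted p = 1.43e-06 for rapamycin), and Farsa, the alpha subunit, fell by 0.56 on the log2 scale. Wars fell by 0.78, Hars by 0.75 and Yars by 0.63 on that scale. Qars was the only cytosolic member that rose with rapamycin (log2 fold change 0.50, SE 0.06, adjusted p = 3.98e-05).

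Kars fell with rapamycin (log2 fold change -0.34, SE 0.059, adjusted p = 0.00049), whereas Eprs, Nars, Mars and Cars did not pass. Eprs, which charges both glutamate and proline, had 93.6, 83.9 and 95.5 CPM in Torin-2 libraries, 149.8, 144 and 158 CPM in rapamycin libraries and 148, 142 and 178 CPM in vehicle libraries. Rapamycin and vehicle values overlapped (log2 fold change -0.045, SE 0.084, adjusted p = 0.683), and Torin-2 values lay below both (log2 fold change -0.77, SE 0.085, adjusted p = 6.94e-06). Mars and Cars passed for rapamycin when the replicate number was a block (adjusted p = 0.0375 and 0.0425) or without rapamycin replicate 3 (adjusted p = 0.0467 and 0.0121). The fall of Aars with rapamycin was lost without rapamycin replicate 1 (adjusted p = 0.0582) or replicate 2 (adjusted p = 0.0522). That of Sars was lost without rapamycin replicate 1 or 2 (adjusted p = 0.111 for both), vehicle replicate 1 (adjusted p = 0.0564) or vehicle replicate 3 (adjusted p = 0.0825).

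Torin-2 was also set against rapamycin directly. Of the cytosolic members, 15 were lower with Torin-2, 3 were higher and 3 did not pass, with a median log2 fold change of -0.36, while 48.2% of all genes were called, 24.1% lower and 24.2% higher, with a median of -0.001. Torin-2 libraries lay entirely below rapamycin libraries for 19 of the 40 members and above them for 9, against 28.2% and 28.9% of all genes, or 57.2% in either direction. The largest differences below 0 were Wars at -1.03 (SE 0.062), Yars at -0.86 (SE 0.089), Aars at -0.83 (SE 0.098) and Eprs at -0.73 (SE 0.085). Tarsl2 at 1.15 (SE 0.120), Kars at 0.52 (SE 0.059) and Qars at 0.23 (SE 0.060) were higher with Torin-2. Vars at -0.041 (SE 0.062), Dars at 0.075 (SE 0.054) and Farsb at 0.11 (SE 0.058) did not pass. The call of Sars (-0.24) was lost without rapamycin replicate 3 (adjusted p = 0.101) or Torin-2 replicate 1, 2 or 3 (adjusted p = 0.0694, 0.0763 and 0.0681), and that of Cars (-0.30) without rapamycin replicate 3 (adjusted p = 0.0518) or Torin-2 replicate 1 (adjusted p = 0.0624).

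The 8 cytosolic enzymes of the multisynthetase complex are Dars, Eprs, Iars, Kars, Lars, Mars, Qars and Rars. Among all genes, 32.9% were lower and 32.5% higher with Torin-2 and 26.2% lower and 24.6% higher with rapamycin, each against vehicle. With Torin-2, 6 of the 8 fell and 2 rose, with a median log2 fold change of -0.63, and of the 13 outside the complex 12 fell and 0 rose by edgeR or by DESeq2, with a median of -0.82 (1 rose at an unadjusted p under 0.05). Rapamycin lowered 5 of the 8 and raised 1, with a median of -0.31, and lowered 11 of the 13 with a median of -0.56. Summed levels of the complex members were 721.9 to 727.8 CPM in Torin-2, 738.5 to 820.6 CPM in rapamycin and 832.9 to 886.7 CPM in vehicle libraries. Those of the other 13 were 785.6 to 806.2 CPM in Torin-2, 964.9 to 1129 CPM in rapamycin and 1310 to 1428 CPM in vehicle libraries. By catalytic class, with Eprs counted in neither because it joins an enzyme of each, Torin-2 lowered 8 of 9 class I and 9 of 11 class II members. No test of the difference between these subgroups was made.

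The scaffold proteins moved in opposite directions. Aimp1, which also gives rise to a secreted cytokine, had 66.8, 68.1 and 60.7 CPM in Torin-2 libraries, 48.9, 47.4 and 53.6 CPM in rapamycin libraries and 40.8, 42.8 and 37.7 CPM in vehicle libraries. Torin-2 was highest, rapamycin between and vehicle lowest, without overlap (log2 fold change 0.69, SE 0.073, adjusted p = 5.13e-06 for Torin-2 and log2 fold change 0.31, SE 0.074, adjusted p = 0.0046 for rapamycin, each against vehicle). Aimp2, on which the complex is assembled, had 9.30, 10.4 and 9.78 CPM in Torin-2 libraries, 10.6, 12.1 and 9.97 CPM in rapamycin libraries and 20.8, 23.4 and 21.1 CPM in vehicle libraries. Values with Torin-2 and rapamycin overlapped and were all below vehicle (log2 fold change -1.15, SE 0.099, adjusted p = 8.92e-07 for Torin-2 and log2 fold change -0.995, SE 0.099, adjusted p = 9.66e-06 for rapamycin). Aimp2 shares 487 exon bases with Eif2ak1 on the opposite strand, and Eif2ak1, a kinase of eIF2, rose with Torin-2 (log2 fold change 0.53) and with rapamycin (0.69). Eef1e1, the remaining scaffold and no member by name, fell with Torin-2 (-0.33) and with rapamycin (-0.50). Aimp1 shares 163 exon bases with Tbck, whose values did not pass with Torin-2 (log2 fold change -0.091).

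Among the 17 mitochondrial synthetases, Torin-2 lowered 10 and raised 3 against vehicle, and 4 did not pass. The median log2 fold change was -0.56, or -0.63 without Lars2, against 32.9% of all genes lower and 32.5% higher. Without Lars2, the summed level was 261.6 to 262.1 CPM in Torin-2, 225.9 to 242.4 CPM in rapamycin and 308.0 to 316.1 CPM in vehicle libraries. Iars2 was the largest part of these sums, averaging 99.2, 74.6 and 75.6 CPM with Torin-2, rapamycin and vehicle. Between the inhibitors the 16 members other than Lars2 had a median log2 fold change of -0.049. Nars2, the asparaginyl enzyme (chr7:96951505-97064758, plus strand), fell most and had 7.65, 5.74 and 5.18 CPM in Torin-2 libraries, 10.04, 11.1 and 11.5 CPM in rapamycin libraries and 23.3, 20.9 and 23.7 CPM in vehicle libraries. The groups did not overlap, with Torin-2 lowest (log2 fold change -1.88, SE 0.134, adjusted p = 1.8e-07 for Torin-2 against vehicle). Aars2, the alanyl enzyme, had 3.96, 3.77 and 3.74 CPM in Torin-2 libraries, 6.69, 6.35 and 7.12 CPM in rapamycin libraries and 8.73, 8.69 and 9.10 CPM in vehicle libraries, again in 3 separate groups (log2 fold change -1.21, SE 0.115, adjusted p = 1.98e-06). Tars2, the threonyl enzyme, had 23.6, 23.3 and 25.1 CPM in Torin-2 libraries, 24.1, 26.1 and 26.7 CPM in rapamycin libraries and 42.6, 43.2 and 42.8 CPM in vehicle libraries, with both inhibitors below vehicle and overlapping each other (log2 fold change -0.84, SE 0.066, adjusted p = 4.32e-07).

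Rars2, Cars2, Vars2, Ears2, Mars2 and Sars2 also fell with Torin-2, by 0.78, 0.77, 0.74, 0.71, 0.56 and 0.49 on the log2 scale. The fall of Sars2 was lost without Torin-2 replicate 3 (adjusted p = 0.0707). Pars2 at -0.38 (SE 0.167), Hars2 at -0.063 (SE 0.090) and Fars2 at 0.083 (SE 0.063) did not pass, and Pars2 did so without vehicle replicate 1 (adjusted p = 0.0475) or replicate 3 (adjusted p = 0.0381). Cars2 shares 422 exon bases with Naxd, which fell by 0.70 with Torin-2, and Ears2 shares 89 with Ubfd1, which fell by 0.52.

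Wars2, Yars2 and Iars2 rose with Torin-2. Wars2, the mitochondrial tryptophanyl enzyme (chr3:99141068-99239186, plus strand), had 14.7, 15.2 and 12.8 CPM in Torin-2 libraries, 6.31, 5.59 and 5.51 CPM in rapamycin libraries and 5.27, 4.51 and 4.67 CPM in vehicle libraries. Torin-2 values were above all others, and rapamycin values lay just above vehicle values without passing (log2 fold change 1.56, SE 0.12, adjusted p = 3.37e-07 for Torin-2, log2 fold change 0.26, SE 0.127, adjusted p = 0.106 for rapamycin, each against vehicle). Iars2, the isoleucyl enzyme, had 99.7, 97.7 and 100.0 CPM in Torin-2 libraries, 70.8, 75.2 and 78.00 CPM in rapamycin libraries and 74.3, 78.04 and 74.5 CPM in vehicle libraries, with Torin-2 above the other 2 groups, which overlapped (log2 fold change 0.39, SE 0.054, adjusted p = 4.27e-05). It shares 2034 exon bases with Rab3gap2 on the opposite strand, and Rab3gap2 rose with Torin-2 as well (log2 fold change 0.43), and the part of its reads in the Iars2 counts was not tested. Yars2, the tyrosyl enzyme, had 7.97, 8.61 and 9.49 CPM in Torin-2 libraries, 5.28, 6.96 and 6.57 CPM in rapamycin libraries and 6.47, 6.79 and 6.35 CPM in vehicle libraries, with Torin-2 above the other groups (log2 fold change 0.41, SE 0.129, adjusted p = 0.0142). This call was lost without Torin-2 replicate 3 (adjusted p = 0.066).

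Rapamycin lowered 11 mitochondrial members, and 0 rose by edgeR or by DESeq2, which called 10 lower. At an unadjusted p under 0.05, 12 were lower and 0 higher. The median log2 fold change was -0.50, against 26.2% of all genes lower. Among those that fell were Nars2 (log2 fold change -1.06, SE 0.128, adjusted p = 3.93e-05), Cars2 and Tars2 (log2 fold change -0.74, SE 0.066, adjusted p = 4.54e-06). Cars2, the cysteinyl enzyme, had 4.55, 4.68 and 5.18 CPM in Torin-2 libraries, 3.93, 5.21 and 3.86 CPM in rapamycin libraries and 7.49, 9.12 and 8.09 CPM in vehicle libraries. Both inhibitors lay below vehicle (log2 fold change -0.92, SE 0.152, adjusted p = 0.00038 for rapamycin). Fars2, the phenylalanyl enzyme, had 29.9, 29.5 and 28.4 CPM in Torin-2 libraries, 19.6, 19.04 and 19.8 CPM in rapamycin libraries and 27.7, 27.6 and 27.6 CPM in vehicle libraries. Rapamycin values were below the other groups (log2 fold change -0.51, SE 0.065, adjusted p = 6.12e-05 for rapamycin against vehicle). Fars2 shares 115 exon bases with Lyrm4, which fell with both inhibitors.

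Some of these calls lay near the threshold and were lost when any of several libraries was left out. The fall of Ears2 with rapamycin was lost without rapamycin replicate 1 (adjusted p = 0.0833) or 3 (adjusted p = 0.104), or vehicle replicate 1 (adjusted p = 0.0686) or 2 (adjusted p = 0.0766). For Mars2 it was lost without rapamycin replicate 1 (adjusted p = 0.1) or 3 (adjusted p = 0.141), Torin-2 replicate 3 (adjusted p = 0.0568), or vehicle replicate 2 (adjusted p = 0.139) or 3 (adjusted p = 0.095). For Sars2 it was lost without rapamycin replicate 1 (adjusted p = 0.0587) or 2 (adjusted p = 0.0519), or vehicle replicate 1 (adjusted p = 0.0569) or 3 (adjusted p = 0.0514).

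Set against rapamycin, Torin-2 left 3 mitochondrial members lower and 4 higher, and 10 did not pass, with a median log2 fold change of -0.002, against 24.1% of all genes lower and 24.2% higher. Nars2 (-0.82, SE 0.139) and Aars2 (-0.81, SE 0.118) were among those lower. Wars2 (1.29, SE 0.119), Fars2 (0.59, SE 0.065), Yars2 (0.47, SE 0.131) and Iars2 (0.41, SE 0.054) were higher. The call of Yars2 was lost without Torin-2 replicate 3 (adjusted p = 0.0545), and Vars2 was called lower without it (adjusted p = 0.0377).

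Lars2, the mitochondrial leucyl enzyme (chr9:123366927-123462666, plus strand), had the largest standard error of the 40 members. It had 1481, 1119 and 1482 CPM in Torin-2 libraries, 540.3, 2310 and 202.3 CPM in rapamycin libraries and 530.1, 1553 and 300.2 CPM in vehicle libraries. Replicates of a group differed widely and the groups overlapped (log2 fold change 0.78, SE 0.725, adjusted p = 0.365 for Torin-2 against vehicle). Over the 9 libraries its level spanned 11.4-fold, and that of Gm42418, a transcript of the ribosomal RNA locus, spanned 10.9-fold. There were 7.34 to 9.16 Lars2 reads for every 100 Gm42418 reads in all 9 libraries, and Gm42418 held 0.222% to 2.43% of the counts. The part of ribosomal RNA in the Lars2 counts was not tested. With the replicate number as a block Lars2 was called higher with Torin-2 than with vehicle (log2 fold change 1.38, adjusted p = 0.0199) and than with rapamycin (1.24, adjusted p = 0.0488), the second also without rapamycin replicate 2 (1.88, adjusted p = 0.0281). Without the filter on low counts it was called higher with Torin-2 than with vehicle (0.79, adjusted p = 1.95e-26), with rapamycin than with vehicle (0.36, adjusted p = 4.77e-06) and with Torin-2 than with rapamycin (0.43, adjusted p = 2.94e-08). The fold changes were near those of the main fit and the groups overlap. These adjusted p-values therefore do not measure the spread between replicates. Because of that spread, sums over the mitochondrial members are given without Lars2.

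**Figure D3:**
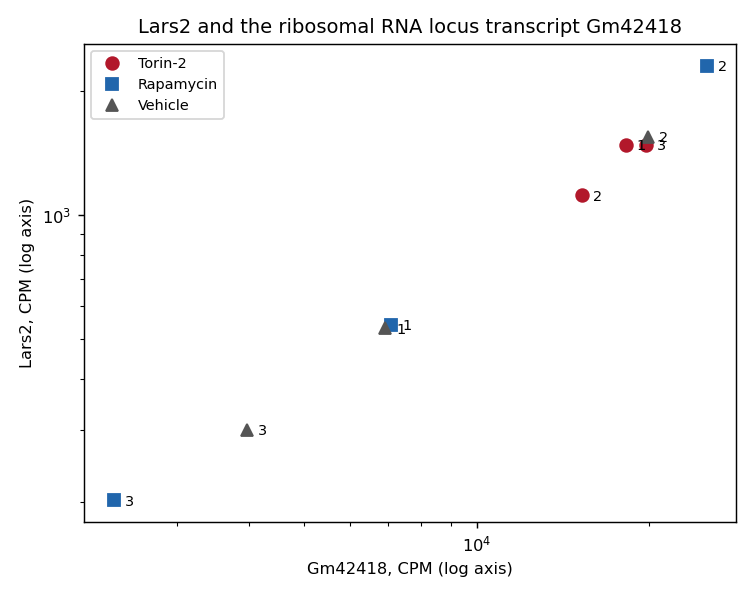
CPM of Lars2 (vertical) against CPM of Gm42418 (horizontal), both on log axes, 1 point per library with its replicate number. The 9 points lie along a line of nearly constant ratio, 7.34 to 9.16 Lars2 reads per 100 Gm42418 reads, with replicate 2 high in the rapamycin and vehicle groups.

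Cytosolic and mitochondrial enzymes for the same amino acid were set side by side with Torin-2 over vehicle. There were 18 pairs, since Eprs stands with both Ears2 and Pars2, and Farsa and Farsb both stand with Fars2. In 10 pairs both enzymes fell. Log2 fold changes were close for alanine (Aars -1.16, Aars2 -1.21), serine (Sars -0.49, Sars2 -0.49) and methionine (Mars -0.51, Mars2 -0.56). Those for glutamate (Eprs -0.77, Ears2 -0.71), arginine (Rars -0.88, Rars2 -0.78), valine (Vars -0.85, Vars2 -0.74) and threonine (Tars -0.95, Tars2 -0.84) were also close. In 3 pairs the cytosolic enzyme fell and the mitochondrial one rose: tryptophan (Wars -1.82, Wars2 1.56), tyrosine (Yars -1.49, Yars2 0.41) and isoleucine (Iars -0.81, Iars2 0.39). Of these, the Yars2 call was lost without Torin-2 replicate 3 (adjusted p = 0.066), and Iars2 shares exon bases with Rab3gap2, which also rose. Among all genes taken singly, 32.9% were lower and 32.5% higher. These are not shares of pairs, and no share of pairs over all genes was computed. Asparagine showed a larger fall of the mitochondrial enzyme, with -0.35 for Nars and -1.88 for Nars2. The differences within pairs were not tested.

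**Figure D4:**
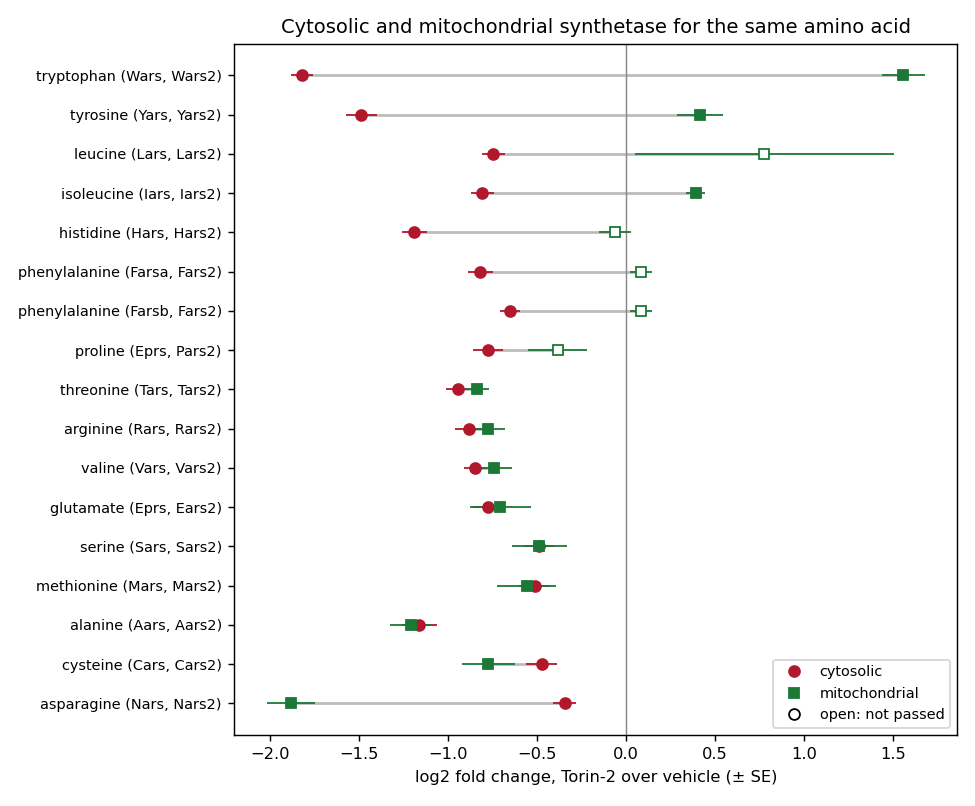
Log2 fold change of Torin-2 over vehicle with SE (horizontal axis) for the cytosolic enzyme (circles) and the mitochondrial enzyme (squares) of 17 pairs (rows), ordered from top to bottom by mitochondrial minus cytosolic. Tryptophan spans -1.82 to 1.56, and asparagine at the bottom has the mitochondrial enzyme at -1.88.

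Genes that act beside the synthetases were read from the same fit, where 32.9% of all genes were lower and 32.5% higher with Torin-2 and 26.2% lower and 24.6% higher with rapamycin. Of 11 tested cofactor and proofreading genes, 9 were lower with Torin-2, with 0 higher by edgeR, by DESeq2 and at an unadjusted p under 0.05, and 8 were lower with rapamycin, or 5 without rapamycin replicate 1. They include Mtfmt, which formylates the mitochondrial initiator tRNA (-0.85 with Torin-2, -0.39 with rapamycin), and the subunits of the amidotransferase that makes mitochondrial glutaminyl-tRNA, Qrsl1 (-0.67 and -0.47) and Gatb (-0.57 and -0.74). Of 22 tRNA maturation and export genes, 12 were lower and 6 higher with Torin-2, and 12 were lower with rapamycin. Xpot, the tRNA exporter, fell (-0.59 with Torin-2, -0.20 with rapamycin), as did Pop5, a subunit of RNase P (-1.05 and -0.93), while the splicing endonuclease subunit Tsen15 rose with Torin-2 (0.88).

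RNA polymerase III transcribes the tRNA genes. Of 22 genes for its subunits and factors, 8 were higher and 3 lower with Torin-2, with a median log2 fold change of -0.014, and 4 were higher and 5 lower with rapamycin, against 65.4% of all genes called with Torin-2 and 50.8% with rapamycin. Polr3b, its second largest subunit, rose with Torin-2 (1.14), as did Maf1, its repressor (0.64 with Torin-2, 0.24 with rapamycin), while Polr3k fell (-1.17 and -0.52). Of 10 mitochondrial translation factors, 5 were lower and 1 higher with Torin-2, a share called near that of all genes, and 6 were lower with rapamycin, against 26.2% of all genes lower. Tufm, the mitochondrial elongation factor, fell with both (-0.72 and -0.57), and Mrrf, the ribosome recycling factor, rose with Torin-2 (0.66).

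**Figure D5:**
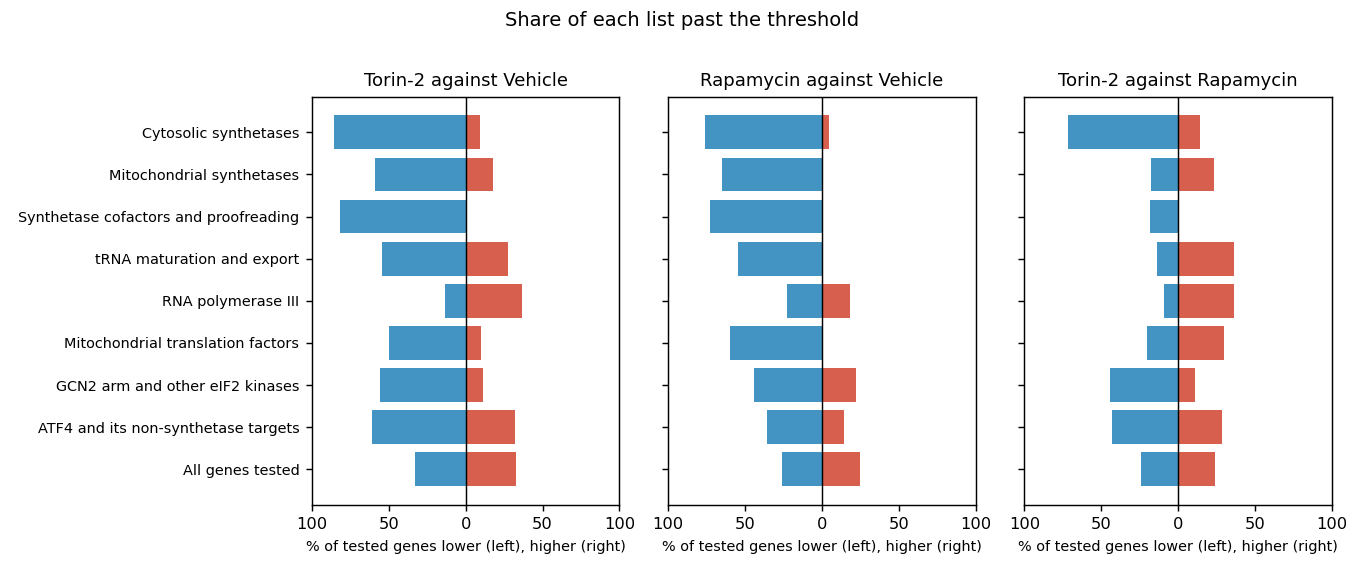
Percent of the tested genes of each list that were lower (blue, left) or higher (red, right) at an adjusted p of 0.05, by comparison. Cytosolic synthetases and their cofactors lie mostly to the left with Torin-2 over vehicle, beside all genes tested in the bottom row, at 32.9% lower and 32.5% higher.

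ATF4 and its known targets other than synthetases were split. The list holds regulators, stress genes, transporters and enzymes. Its tested enzymes of amino acid and one-carbon synthesis were all lower with Torin-2 than with vehicle. Its stress genes and transporters went both ways. Trib3 (-1.25) and Slc7a5 (-2.10) were lower with Torin-2, and Ppp1r15a (1.55) and Slc7a11 (1.14) were higher. Differences between these subgroups were not tested. Of 28 tested genes, 17 were lower and 9 higher with Torin-2 against vehicle, and 10 were lower and 4 higher with rapamycin against vehicle. Among all genes 32.9% were lower and 32.5% higher with Torin-2, and 26.2% lower and 24.6% higher with rapamycin, so the share higher with Torin-2 and the share called with rapamycin were near those of all genes. Atf4 itself had 263, 293 and 320.4 CPM in Torin-2 libraries, 84.4, 109 and 132 CPM in rapamycin libraries and 89.7, 95.7 and 116 CPM in vehicle libraries. Torin-2 values were above the others, which overlapped (log2 fold change 1.54, SE 0.143, adjusted p = 1.62e-06 for Torin-2, log2 fold change 0.11, SE 0.142, adjusted p = 0.54 for rapamycin). Ddit3, a stress-induced transcription factor, had 101, 96.8 and 145 CPM in Torin-2 libraries, 27.6, 29.4 and 72.8 CPM in rapamycin libraries and 30.4, 22.7 and 67.98 CPM in vehicle libraries, with replicate 3 highest in every group (log2 fold change 1.51, SE 0.409, adjusted p = 0.00642). Asns, asparagine synthetase, had 4.65, 5.05 and 4.07 CPM in Torin-2 libraries, 19.3, 25.7 and 28.6 CPM in rapamycin libraries and 33.9, 42.7 and 44.6 CPM in vehicle libraries, lowest with Torin-2 and highest with vehicle without overlap (log2 fold change -3.14, SE 0.165, adjusted p = 1.5e-08). Psat1, an enzyme of serine synthesis, had 16.4, 19.3 and 12.5 CPM in Torin-2 libraries, 45.3, 55.7 and 44.9 CPM in rapamycin libraries and 249, 278 and 241 CPM in vehicle libraries, in the same order (log2 fold change -4.00, SE 0.143, adjusted p = 8.3e-10, and -2.39 for rapamycin against vehicle). Of 9 genes of the GCN2 arm and other eIF2 kinases, 5 were lower and 1 higher with Torin-2, a share called near the 65.4% of all genes. Eif2ak4, the GCN2 kinase itself, did not pass (0.14), and Gcn1l1, its activator, fell (-0.89).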

How the data were processed

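Paired-end reads of 100 bp were made from RNA of 9 macrophage cultures, per the labels. The authors deposited whole-number counts of reads for each gene, in 1 column per sample. STAR 2.5.2a, bcl2fastq, FastQC and the builds GRCm38.p6 and mm10 are named in the submitters' processing notes. For the counting tool, annotation and strand setting nothing is given in the sources used here. Mitochondrially encoded genes in the table number 0.

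The count model was edgeR 4.0.16 (limma 3.58.1, R 4.3.3). The filter was filterByExpr by group, and TMM factors ran from 0.955 to 1.05. The 3 groups were fitted together by quasi-likelihood, and 2-sided tests were adjusted by Benjamini-Hochberg over the 12511 genes, at 0.05. The common biological coefficient of variation was 9.96%. Fold changes are relative to the other genes of a library. Lars2 aside, low-count members such as Mars2 and Ears2 had among the largest standard errors. The procedure was tested on simulated counts. Replicates are from separate animals, per the labels' protocols. Positions and principal transcripts are from the GENCODE annotation of GRCm38, and promoter windows from RefSeq on GRCm38.p6; stretches of members on chromosome 18 were not used here. Transcripts were compared with each other by BLAST 2.17.0, which found that Iars shares 96.0% of 1656 bases with the pseudogene Gm4849, with 9 counts in the table.

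The replicate numbers were checked as pairs. Deviations from group means correlated at 0.168 to 0.5 between same-numbered libraries of different groups (9 pairs) and at -0.358 to 0.162 between others (18 pairs), so the number was used as a block in an alternative fit. Other alternatives were DESeq2 1.42.0, other scalings, no filter, only the groups compared, and each replicate left out.

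Values of 1 member and 1 cell type marker are not reported here, though counts, medians and sums over their lists include them. Members and lists were chosen with earlier results of these data known. Given in every library are, per comparison and compartment, up to 4 largest falls and 4 largest rises past the threshold, members against most of their compartment, Aimp1, Aimp2, Tars and Tarsl2. From each neighbouring list up to 3 genes that rose and 3 that fell may be named, with Atf4, Ddit3, Asns, Psat1 and Eef1e1; Lars2, Eif2ak4 and the genes that share exon bases with members were named after their values were seen.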

Additional observations from a re-analysis of the deposited data

How the results depend on the processing

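Each of 40 members in 3 comparisons gave 120 results, of which 0 called ones changed direction under the alternatives run. Values that did not pass changed sign in places, such as Lars2 with rapamycin against vehicle, at -1.1 without rapamycin replicate 2. The count of cytosolic calls with Torin-2 against vehicle was 19 to 21 as each replicate was left out, with rapamycin against vehicle 15 to 19 and with Torin-2 against rapamycin 16 to 18. The mitochondrial counts were 11 to 14, 8 to 11 and 7 to 8. Among all genes they were 7488 to 8332, 5478 to 6250 and 5166 to 6156. Without vehicle replicate 1 the cytosolic count of 19 held 1 higher and 18 lower. Without a filter, rapamycin against vehicle gave 11 mitochondrial calls, 1 higher and 10 lower, the higher one being Lars2 (adjusted p = 4.77e-06), and the fall of Aars2 was lost (adjusted p = 0.059). Lars2 was then also called higher with Torin-2 than with vehicle (0.79, adjusted p = 1.95e-26) and than with rapamycin (0.43, adjusted p = 2.94e-08). The adjusted p-values of Lars2 without a filter do not measure the spread between its replicates. Scaling by library totals alone gave 19 cytosolic calls for Torin-2 against rapamycin, 5 higher and 14 lower, and Cars, Mars, Nars and Pars2 then passed with rapamycin against vehicle. Under that scaling 37.4% of all calls for rapamycin against vehicle were higher, against 48.5% with TMM, and 59.7% for Torin-2 against rapamycin, against 50.1%. With the motifs searched on the strand of the gene alone, 1 member in place of 5 held a match to the C/EBP-ATF element. For the NRF1 motif it was 3 in place of 5. With a replicate block 115 of the 120 results kept their call and 5 more passed: Cars and Mars (rapamycin against vehicle, adjusted p = 0.0425 and 0.0375), Tarsl2 (Torin-2 against vehicle, adjusted p = 0.036) and Lars2 in both Torin-2 comparisons (adjusted p = 0.0199 and 0.0488). DESeq2 lost 1 call, that of Mars2 with rapamycin (adjusted p = 0.0541). Leaving out replicate 3 of every group or Lars2 was chosen after seeing the data. Without the number 3 libraries 109 results kept their call, and the rise of Aimp1 with rapamycin was 0.20 on the log2 scale. The causes of these changes were not tested. Several mitochondrial members had low levels: Mars2, Sars2, Ears2, Pars2, Aars2, Cars2 and Yars2 stood below 11 CPM in every library. Calls also changed for members with more counts, such as Sars, Cars and Lars2.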
